A study of Mus musculus with 6 samples.

Results

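Among colonic CD4 T cells sorted as negative for both reporters of the study, 2184 cells held at least 1 Foxp3 unique molecular identifier (UMI, a tag that counts 1 captured RNA molecule). They were chosen by 3 criteria, namely a hashed replicate, a deposited cluster number and 1 or more Foxp3 UMIs, out of 9982 tdTomato-GFP- cells with a replicate and a cluster and 23595 cells in the whole table. Of the 2184, 1175 lay in cluster 5 (605, 384 and 186 in replicates 1 to 3) and 1009 lay outside it (515, 331 and 163). Cluster 5 was led by Penk, the immunoglobulin segment Igkv17-121, Foxp3, Klrg1 and Tnfrsf9 and carried 7 of the 8 regulatory T (Treg) cell markers examined. It also carried 8 of 12 T helper 2 (Th2) markers, Gata3, Il4 and Il13 among them, 3 of 13 cytotoxic markers and 3 of 10 B or plasma cell markers. Foxp3 counts and the clusters therefore chose both sides, and since the clusters drew on the genes of these cells, differences between the sides are given as descriptions with no test. Cells with a Foxp3 UMI were tested against cells without one from their own clusters, and the receptor sequences were compared between the sides.

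The study read the transcripts and T cell receptors of single CD4 T cells taken from mouse colonic lamina propria. Both gates came from mice labelled Foxp3{delta}EGFPiCre/WT R26lsl-tdTomato/wt, which carry a Foxp3 reporter allele beside a WT allele, and a tdTomato gene at R26 that Cre switches on. The labels give no age, strain or treatment. The tdTomato-GFP- gate and the tdTomato+GFP+ gate each filled 1 lane with 3 hashed biological replicates, which means that a lane difference and a gate difference cannot be told apart. Nothing in the labels says whether a replicate is 1 animal, so the p-values measure the spread between these hashed samples. The 3 replicates of this gate held 23289046, 13610295 and 7925662 UMIs without hashtags, and 174 cell barcodes occurred in both lanes (of 12326 and 11269).

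Foxp3 encodes the transcription factor that defines Treg cells, which restrain other immune cells. In the colon many Treg cells arise from conventional CD4 T cells that meet gut antigens, and they can share transcription factors and cytokine receptors with the helper cells around them. A T cell clone carries the same rearranged receptor through its divisions, so a shared receptor sequence marks shared descent.

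The share of Foxp3-positive cells that lay outside cluster 5 was close in the 3 replicates. It was 46.0% in replicate 1, 46.3% in replicate 2 and 46.7% in replicate 3, a mean of 46.3% ± 0.363 (SD, n = 3). Requiring 2 or more Foxp3 UMIs gave 43.2%, 41.9% and 41.6%, and drawing 2000 UMIs from each cell gave 42.7%, 41.1% and 41.5%, after 527 cells outside and 97 cells inside with fewer UMIs were left out. In the tdTomato+GFP+ gate 98.6%, 98.2% and 97.1% of the cells with a Foxp3 UMI lay outside cluster 5.

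The outside cells were spread over 15 clusters and most lay in a few of them. Cluster 4, which stayed unnamed and was led by Ccl5 and Gzma among others, held 21.8% of them. Cluster 0, Th2-like with Il13, Ccl1 and Il4 in the lead, held 20.4%, and cluster 8, unnamed and led by the stromal gene Dcn with Il4 and heat shock genes, held 16.0%. Cluster 6, with Th1 markers such as Ifng and Ccl5, held 10.8%, the cycling cluster 10 held 7.33%, the Tfh-like cluster 7 held 6.05% and the unnamed cluster 11 held 4.26%. The makeup differed between replicates: cluster 8 held 8.93%, 20.5% and 28.8% of the outside cells in replicates 1 to 3, and cluster 4 held 26.6%, 17.8% and 14.7%.

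Measured against all cells of a cluster, Foxp3 detection was highest in cluster 5 (78.5%, 95% exact binomial interval 76.4 to 80.6) and next highest in cluster 8 (26.6%, 23.1 to 30.3). It was 18.8% in cluster 10, 17.7% in cluster 11, 17.0% in cluster 4 (15.0 to 19.1), 11.0% in cluster 6 and 10.2% in cluster 0 (8.95 to 11.7). The lowest shares with at least 100 cells were 2.56% in the Th17-like cluster 1 (1.04 to 5.21, median 4061 UMIs per cell), 3.50% in the cytotoxic-like cluster 15 (1.14 to 7.97, median 3336) and 4.69% in the naive-like cluster 9 (3.25 to 6.53, median 3552). Whether shares at this low level are background was not tested, as they are the lowest of the same ranking. The shares of clusters 0, 4 and 8 (median depths of 3981, 4619 and 3424 UMIs) were higher. Thinned to 2000 UMIs per cell, the shares were 68.2% in cluster 5, 22.1% in cluster 8, 12.9% in cluster 4 and 7.31% in cluster 0, against 1.85%, 2.29% and 3.33% in clusters 1, 15 and 9. In cluster 10, whose cells held a median of 8143.5 UMIs, thinning took the share from 18.8% to 10.7%. These intervals cover counting error only.

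**Figure D1:**
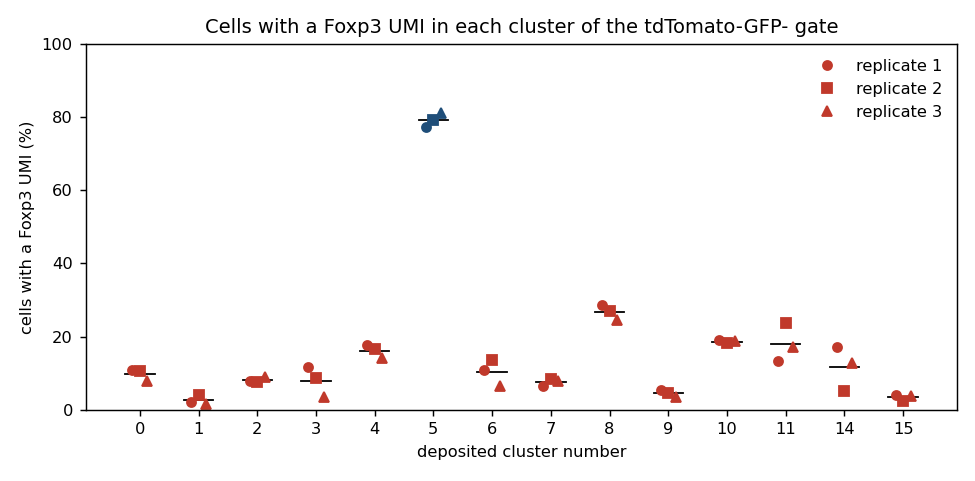
Share of tdTomato-GFP- cells that held a Foxp3 UMI (y axis, percent) per deposited cluster of 100 cells or more (x axis), with 1 point per replicate and a line at the mean. Cluster 5 (blue) reached 78.5% over all replicates, and cluster 8 was the next highest at 26.6%.

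Positive cells outside cluster 5 held somewhat fewer Foxp3 molecules than those inside. The mean was 3.39, 3.36 and 3.40 Foxp3 UMIs per positive cell outside and 3.78, 3.94 and 4.19 inside. Cells at the threshold, with exactly 1 Foxp3 UMI, made up 29.1% of the outside cells (294) and 17.7% of the inside cells (208), and 17.2% and 21.3% held 6 or more. Just below the threshold, 7477 cells outside and 321 cells inside held no Foxp3 UMI. The outside cells were also deeper, with medians of 4595, 4005 and 3871 UMIs per cell against 3431, 3386.5 and 3586.5 inside, and Foxp3 per 1000000 UMIs was 599, 647 and 716 outside and 986, 1039 and 1109 inside.

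Set side by side as a description, the 2 sides were more than 2-fold apart in few genes. A gene counted as past the fold where the summed counts of the outside cells were at least 2-fold above or below those of cluster 5 in each of the 3 replicates. This held for 118 of 8975 genes (1.31%), of which 108 were higher outside (1.2%) and 10 were lower (0.111%). Values in this and the following paragraphs, unless stated otherwise, are counts per 1000000 UMIs (CPM) scaled by trimmed mean of M values (TMM) factors.

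Cell cycle genes and helper cytokines made up the higher group. Of the 12 cell cycle genes, 10 were past the fold, with a list median log2 ratio of 2.43 against 0.0022 over all genes. Pclaf, a DNA replication clamp partner, stood at 96.4, 61.3 and 51.9 CPM outside and at 2.53, 0 and 0 inside, and Stmn1, a microtubule regulator, at 178, 171 and 95.8 against 14.3, 8.34 and 4.38. Cluster 10, the cycling cluster, lies outside by construction. Il17a, the signature cytokine of Th17 cells, stood at 950, 778 and 786 CPM against 75.8, 71.6 and 70.1. Tcf7, a transcription factor of naive and memory T cells, stood at 131, 129 and 104 against 28.6, 25.7 and 27.8. Of the genes that Treg cells hold low, 6 of 13 were past the fold, with a median log2 ratio of 1.38.

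Treg genes lay somewhat lower outside without reaching the fold in most cases. In the core Treg list 1 of 23 genes was past it (Tnfrsf9), and the median log2 ratio was -0.65. In the effector and tissue Treg list 1 of 21 was past it (Penk), with a median of -0.70. Tnfrsf9, a costimulatory receptor of activated Treg cells, stood at 366, 381 and 443 CPM outside and at 780, 1194 and 999 inside. Penk, which encodes the enkephalin precursor, stood at 107, 267 and 342 against 652, 1168 and 932. Ikzf2, the Helios transcription factor, was lower by a similar ratio in each replicate, at 280, 410 and 495 CPM outside and 443, 660 and 802 inside. Ctla4, an inhibitory receptor through which Treg cells act, stood at 2166, 1978 and 1734 outside and at 3192, 3152 and 2594 inside.

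The outside cells were then tested against cells without a Foxp3 UMI of the same replicate and cluster, matched on total UMIs. The matched cells had medians of 4586, 4041 and 3884 UMIs per cell. Foxp3-positive cells outside cluster 5 carried higher core and effector Treg genes than their neighbours in the same clusters. They carried lower genes of the list held low in Treg cells, and the Th2 list went both ways. Of 9150 genes, 1074 passed an adjusted p of 0.05 by edgeR's quasi-likelihood test with Benjamini-Hochberg adjustment (11.7%), 564 higher (6.16%) and 510 lower (5.57%). DESeq2 called 310 genes, 192 higher and 118 lower, of which 290 were among the 1074. The p-values rest on 3 pairs of sums from 3 hashed samples.

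Receptors and surface molecules of Treg cells rose. Of the 23 genes of the core list, 20 were higher and none lower, with a median log2 fold change of 1.10 against -0.0049 over all genes tested. Lrrc32, which encodes GARP, a docking receptor for latent TGF-beta, stood at 38.6, 73.8 and 76.5 CPM in the positive cells and at 2.84, 3.04 and 2.63 in the matched cells, a log2 fold change of 4.23 (SE 0.250, adjusted p = 3.75e-12, edgeR). Itgae, the CD103 integrin chain that binds epithelial E-cadherin, stood at 98.1, 163 and 248 against 8.53, 11.5 and 21.1 (3.62, SE 0.147, adjusted p = 1.97e-15). The 3 positive sums lay far above all 3 matched sums for both genes. Here and below, sums that do not overlap describe the named genes only, as their share among all genes tested is not given.

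Il2ra, the high-affinity chain of the IL-2 receptor, stood at 165, 124 and 148 CPM against 60.1, 64.4 and 29.0 (log2 fold change 1.41, SE 0.193, adjusted p = 0.00242 by edgeR). It missed the threshold where cells had to hold 2 or more Foxp3 UMIs (adjusted p = 0.123). Ctla4 stood at 2127, 1945 and 1718 against 1371, 1230 and 888 (0.73, SE 0.0538, adjusted p = 2.81e-08), and Tnfrsf18, the GITR costimulatory receptor, at 409, 483 and 504 against 223, 259 and 219 (0.97, SE 0.0741, adjusted p = 5.31e-10). Without the replicate block Ctla4 did not pass. Tnfrsf9 stood at 359, 375 and 439 against 68.2, 58.3 and 39.5 (2.69, SE 0.154, adjusted p = 1.07e-05). For each of these 4 receptors the lowest positive sum exceeded the highest matched sum.

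The 3 core genes that did not pass were Ikzf2, Cd83 and Il2rb. Ikzf2 stood at 275, 403 and 490 CPM in the positive cells and at 101, 86.9 and 64.6 in the matched cells, so the groups did not overlap. Its log2 fold change was 2.03 (SE 0.361) with an adjusted p of 0.125 by edgeR and of 1.4e-05 by DESeq2. The replicates differed in the size of its ratio, and edgeR's adjusted p was 0.0209 without the replicate block.

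Effector and tissue Treg genes rose in 16 of 21 cases and fell in none, with a median log2 fold change of 1.52. Klrg1, an inhibitory lectin receptor of effector Treg cells, stood at 156, 359 and 410 CPM against 13.5, 23.1 and 25.0 (3.82, SE 0.124, adjusted p = 1.62e-17, edgeR). Il10, the anti-inflammatory cytokine, stood at 244, 149 and 121 against 27.0, 18.8 and 5.27 (3.22, SE 0.147, adjusted p = 1.05e-13). Areg, which encodes the tissue repair factor amphiregulin, stood at 1036, 1358 and 1511 against 325, 391 and 428 (1.76, SE 0.0541, adjusted p = 8.61e-18). Areg also belongs to the Th2 list, in which 4 of 10 genes rose (Gata3, Il1rl1, Ccr8 and Areg) and 2 fell (Il5 and Il17rb). The median log2 fold change of the Th2 list was -0.38, and all 4 genes that rose also belong to the effector and tissue Treg list. Of the 16, Epcam is also on the list of epithelial markers and Il1rl1 on that of NK and innate lymphoid markers. The sums of those marker lists are given below.

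Among the transcription factors of colonic Treg subsets, Gata3, which guides Th2 cells and a part of tissue Treg cells, stood at 110, 228 and 248 CPM against 100, 155 and 179 (log2 fold change 0.38, SE 0.0968, adjusted p = 0.00855 by edgeR). DESeq2 gave an adjusted p of 0.384, and the call was also lost without the replicate block (adjusted p = 0.728), without replicate 2 (0.215) and with 1 cell per clonotype, where the log2 fold change was 0.12 (0.633).

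**Figure D2:**
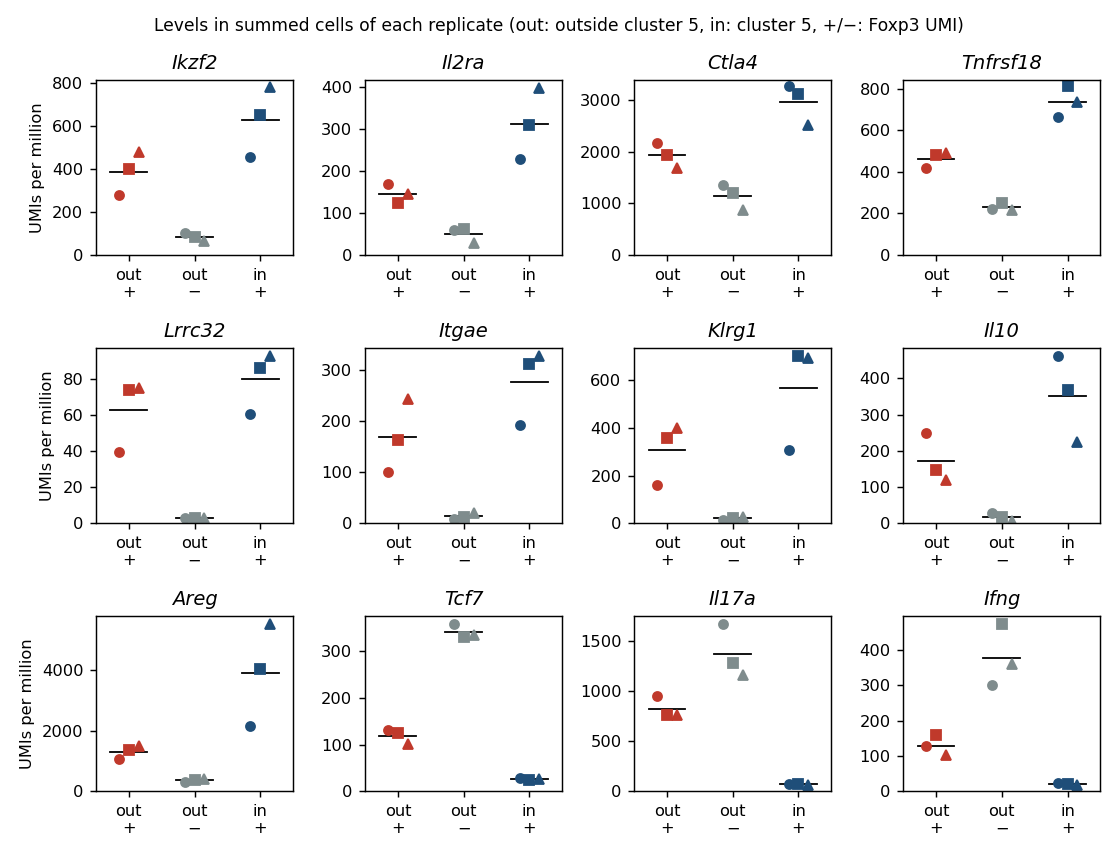
Levels of 12 genes in UMIs per 1000000 UMIs without hashtags (y axes) in summed cells, with 1 point per replicate (circle, square and triangle for replicates 1 to 3) and a line at the mean. In the first 9 panels the positive cells outside cluster 5 (red) lay between the matched cells without a Foxp3 UMI (grey) and the positive cells of cluster 5 (blue) in their means, and in Tcf7, Il17a and Ifng the grey mean was the highest.

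Genes that Treg cells hold low fell in the positive cells. Of 14 tested, 11 were lower and none higher, with a median log2 fold change of -1.48. Ifng, the Th1 cytokine, stood at 125, 160 and 104 CPM against 302.9, 486 and 368 (-1.51, SE 0.0895, adjusted p = 1.35e-11, edgeR). Csf2, which encodes the cytokine GM-CSF, stood at 12.8, 10.5 and 22.4 against 58.3, 58.9 and 51.4 (-2.08, SE 0.194, adjusted p = 2.31e-08). Tcf7 stood at 129, 126 and 103 against 361, 340 and 340 (-1.51, SE 0.0838, adjusted p = 1.16e-12). In each of these genes every positive sum lay below every matched sum.

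Il17a stood at 933, 766 and 779 CPM against 1679, 1320 and 1184 (log2 fold change -0.76, SE 0.0507, adjusted p = 3.88e-11, edgeR). It did not pass with 2 or more Foxp3 UMIs (adjusted p = 0.0568), with possible doublets left out (0.0633) or with 1 cell per clonotype (0.376). Il2, the growth factor that Treg cells consume and do not make, stood at 5.04, 11.1 and 23.7 against 43.7, 117 and 34.3. Its log2 fold change of -2.71 (SE 0.591) had an adjusted p of 0.127 by edgeR. Among the helper lists, 7 of 13 Th1 genes fell and none rose, and 3 of 15 Th17 genes fell (Il17a, Tmem176a and Tmem176b) while Maf rose. Of 13 genes of naive or central memory cells 5 fell, and of 8 cytotoxic genes 3 fell.

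In lists of cell state the counts went both ways or were few. Of 13 genes of T cell receptor activation 4 rose (Tnfrsf9, Tnfrsf4, Rel and Ifrd1) and Egr2 fell, with a list median log2 fold change of 0.25. Of 10 IL-2 and STAT5 genes 3 rose (Socs2, Il2ra and Pim1) and 2 fell (Bcl2 and Lta), and of 8 interferon response genes 3 rose, Isg15 and Ifit1 among them. Of 10 Tfh genes 2 rose (Pdcd1 and Izumo1r) and 3 fell (Bcl6, Il21 and Btla). Of 12 cell cycle genes 2 fell (Pclaf and Mcm5), and of 12 stress and dissociation genes 1 rose and 1 fell.

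**Figure D3:**
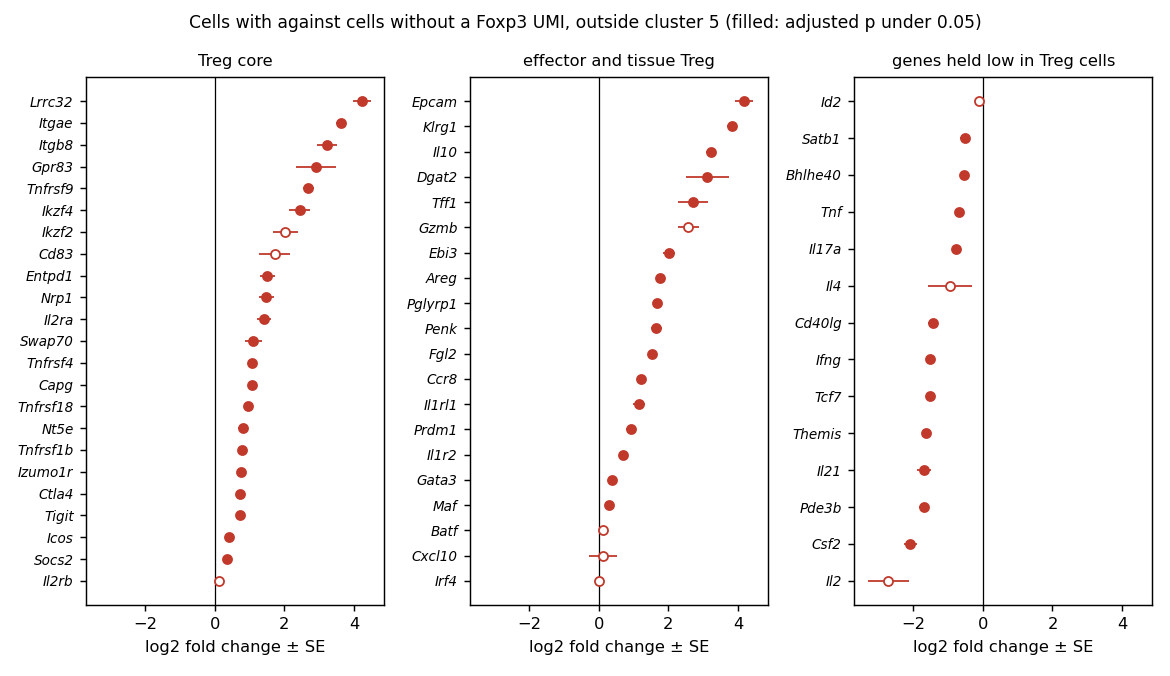
Log2 fold change with its standard error (x axis) of the genes shown from 3 lists (y axis), for cells with against cells without a Foxp3 UMI outside cluster 5, with filled points at an adjusted p under 0.05. Of the core list 20 of 23 and of the effector and tissue list 16 of the 20 shown were filled to the right of 0, and of the genes held low 11 of 14 were filled to the left.

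The largest rises were in genes of low level. Ky, a muscle-type peptidase gene, had 135 UMIs in the positive cells and 1 in the matched cells, a ratio of 132 (95% counting interval 23.3 to 5263). Flicr, a long noncoding RNA at the Foxp3 locus, had 101 against 1 (99.0, 17.4 to 3947), Fgf16, a fibroblast growth factor, 62 against 1 (60.8, 10.5 to 2438), and Frmd5, a FERM domain protein gene, 96 against 2 (47.0, 12.7 to 394). With 1 or 2 UMIs in the matched cells, these genes could pass the minimum count of 10 only through the positive cells. The same held for Lrrc32, given above, and for Rln3, given below, whose matched sums also lay under that count. Calls of such genes are a description and no separate support. Flicr (mm10 X:7573600-7581027) overlaps Foxp3 (X:7573644-7595245) on the same strand, so reads of the 2 genes may not be told apart and Foxp3 was used to choose the cells. Rln3, which encodes the peptide hormone relaxin-3, stood at 39.3, 79.6 and 152 CPM against 2.49, 2.43 and 2.63 (log2 fold change 4.74, SE 0.255, adjusted p = 6.56e-13, edgeR). C2cd4b, Epcam, which encodes an adhesion molecule, and Ica1 completed the 10 largest rises, at 4.29, 4.18 and 3.77. Without the replicate block Rln3 (adjusted p = 0.0691) and C2cd4b (0.0756) did not pass.

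The largest falls were led by Ly6c2, a surface protein gene with 3 UMIs in the positive cells and 59 in the matched cells, a ratio of 20.1 (6.54 to 100 as a 95% counting interval). Il5, the eosinophil cytokine of Th2 cells, stood at 2.35, 1.17 and 1.32 CPM against 21.0, 27.9 and 31.6 (log2 fold change -3.71, SE 0.361, adjusted p = 3.33e-08, edgeR). Both Ly6c2 and Il5 could pass the minimum count of 10 only through the matched cells. Ccl1, which encodes the ligand of the receptor CCR8, stood at 14.8, 34.0 and 29.0 against 94.2, 134 and 60.6 (-2.12, SE 0.211, adjusted p = 7.61e-05). It did not pass without the replicate block (adjusted p = 0.0773), with 2 or more Foxp3 UMIs (0.260) or without cluster 4 (0.0526). Gzmk, a granzyme gene, fell by 2.74 on the log2 scale (adjusted p = 0.00639, and 0.119 by DESeq2), and Tdrp by 2.36 (0.00243, and 0.161 by DESeq2). Hs3st1 (-2.62), Gm14718 (-2.22), Sema4a (-2.20), Sostdc1 (-2.14) and Igfbp7 (-2.09) completed the 10 largest falls, and the sums of Igfbp7 overlapped between the groups. Igfbp7 and Sostdc1 did not pass with 2 or more Foxp3 UMIs (adjusted p = 0.205 and 0.262), nor Igfbp7 without the replicate block (0.299).

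Markers of other cell types moved with these differences. Summed over 10 genes, B and plasma cell markers stood at 557, 336 and 452 per 1000000 UMIs in the positive cells outside cluster 5 and at 121, 128 and 142 in the matched cells, and 3 of 5 tested (Cd79b, Ighm and Igha) were higher. The positive cells of cluster 5 had 502, 399 and 488 of the same sum. Epithelial markers summed to 1112, 41.9 and 52.9 per 1000000 UMIs against 10.6, 9.46 and 6.47, with Muc2 at 0 and replicate 1 far above the others. NK and innate lymphoid markers, which include Gzma, summed to 141, 350 and 880 against 83.4, 76.3 and 69.9. Stromal markers were lower in the positive cells, at 39.12, 37.87 and 39.99 against 188, 167 and 55.7, with Col3a1, Lum and Sparc at 0. A second beta chain, which a droplet with 2 cells can give, was seen in 9.79% of the outside positive cells with a beta chain, 5.24% of the matched cells and 3.40% of the positive cells of cluster 5. The part of these signals in the result was not tested. With possible doublets left out, 484 genes passed, 262 higher and 222 lower, of 6457 tested. That setting kept 115, 237 and 45 positive cells, so fewer doublets and fewer cells cannot be told apart. In it 18 of 21 core Treg genes were higher and none lower, against 4.06% higher over all genes. Of the genes held low, 8 of 13 were lower and none higher, against 3.44% lower over all genes.

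Within single clusters the difference was found in each of the 3 that held at least 20 positive cells per replicate. In cluster 0, 346 of 5047 genes passed (6.86%), 161 higher (3.19%) and 185 lower (3.67%), and DESeq2 called 26 and 19. Core Treg genes were higher in 14 of 19 cases and genes held low were lower in 9 of 12. Rln3 had 77 UMIs in the positive cells and none in the matched cells, at least 25.3-fold higher against a floor of 3 counts over the group. Lrrc32 had 65 against 1 (ratio 64.0, 95% counting interval 11.1 to 2565) and Tff1, a trefoil peptide gene, 53 against 1 (52.2, 8.97 to 2099). Il5 had 3 UMIs against 51 in the matched cells (17.3, 5.59 to 86.5). Il17a stood at 26.2, 28.3 and 0 CPM against 159, 185 and 356 (adjusted p = 2.33e-06 by edgeR, 0.137 by DESeq2 and 0.448 with 1 cell per clonotype), and Csf2 fell by 2.60 on the log2 scale (adjusted p = 4.01e-12). Here Rln3, Lrrc32 and Tff1 could pass the minimum count only through the positive cells, and Il5, Il17a and Csf2 only through the matched cells. Calls of these genes are a description and no separate support.

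In cluster 4, 434 of 5138 genes passed (8.45%), 238 higher (4.63%) and 196 lower (3.81%), against 76 and 38 by DESeq2. Core Treg genes were higher in 14 of 18 cases, and genes held low were lower in 9 of 13. Klrg1 stood at 244, 641 and 659 CPM in the positive cells and at 6.32, 8.51 and 15.6 in the matched cells (log2 fold change 5.60, SE 0.256, adjusted p = 4.23e-16, edgeR). Gzma, a granzyme of cytotoxic cells, stood at 223, 710 and 3249 against 3.79, 0 and 133 (5.41, SE 0.475, adjusted p = 0.0067), and this call was lost with 1 cell per clonotype (adjusted p = 0.489), without the replicate block (0.237) and with unmatched cells (0.0864). Rln3 had 84 UMIs against 2 (ratio 41.0, 95% counting interval 11.0 to 344), and its call was lost without the replicate block (adjusted p = 0.0634). Il2 stood at 3.64, 0 and 7.57 against 86.0, 114 and 54.8 (-4.77, SE 0.461, adjusted p = 9.46e-09), so here the fall of Il2 passed. Klrk1, the NKG2D receptor gene, had 3 UMIs against 59, and Pde3b, a phosphodiesterase gene that FOXP3 is known to repress, fell by 3.38 (adjusted p = 3.56e-07). In this cluster Klrg1, Gzma and Rln3 could pass the minimum count only through the positive cells, and Il2, Klrk1 and Pde3b only through the matched cells. Calls of these genes are a description and no separate support.

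In cluster 8, 216 of 2558 genes passed (8.44%), 101 higher (3.95%) and 115 lower (4.5%), against 27 and 5 by DESeq2 and 7 genes in all without replicate 2. Core Treg genes were higher in 12 of 15 cases and genes held low were lower in 5 of 11. Klrg1 stood at 258, 715 and 874 CPM against 0, 70.9 and 39.9 (log2 fold change 3.91, SE 0.315, adjusted p = 5.72e-06, edgeR). Il10 stood at 661, 331 and 329 against 58.5, 45.6 and 0 (3.53, SE 0.384, adjusted p = 0.000207), and Tnfrsf9 at 403, 487 and 521 against 134, 45.6 and 24.0 (2.87, SE 0.432, adjusted p = 0.00798). Ifng fell by 2.49, Tcf7 by 2.43 and Bcl2, a survival factor gene, by 2.34 on the log2 scale. Of these 6 genes only Klrg1 passed without replicate 2, and Klrg1 did not without the replicate block (adjusted p = 0.0804). Klrg1, Il10 and Tnfrsf9 could pass the minimum count here only through the positive cells, and Bcl2 only through the matched cells. Calls of these genes are a description and no separate support.

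Ikzf2, which missed the threshold over all outside clusters, passed in each single cluster. Its log2 fold change was 2.17 in cluster 0 (SE 0.189, adjusted p = 1.09e-16), 2.86 in cluster 4 (SE 0.202, adjusted p = 4.75e-10) and 2.47 in cluster 8 (SE 0.261, adjusted p = 7.55e-05), by edgeR's quasi-likelihood test with Benjamini-Hochberg adjustment. In cluster 4 it stood at 304, 489 and 735 CPM against 60.7, 51.1 and 54.8.

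The same contrast inside cluster 5 set its 321 cells without a Foxp3 UMI (178, 100 and 43) against positive cells matched on depth. There 144 of 5116 genes passed (2.81%), 61 higher (1.19%) and 83 lower (1.62%), while DESeq2 called 7 and 9 and the fit without the replicate block 3 and 17. Core Treg genes were higher in 8 of 22 cases, with a median log2 fold change of 0.43 against 0.0050 over all genes, and genes held low were lower in 6 of 11. Helper cytokines gave the largest falls. Il13, a Th2 cytokine, had 1 UMI in the positive cells and 250 in the cells without Foxp3 (ratio 250.3, 95% counting interval 44.5 to 9926), and Ccl1 had 2 against 139 (69.6, 18.9 to 580). Ifng stood at 22.9, 27.0 and 41.1 CPM against 215, 309 and 104 (log2 fold change -3.06, SE 0.247, adjusted p = 1.16e-31, edgeR), and Il4 at 58.8, 45.0 and 34.2 against 331, 234 and 992 (-2.95, SE 0.199, adjusted p = 1.11e-35). Il13, Ccl1 and Ifng could pass the minimum count here only through the cells without Foxp3, so their calls are a description and no separate support. Myo6, a myosin gene, also fell, by 2.79 (adjusted p = 1.87e-10). Without the replicate block Il4 (adjusted p = 0.433) and Myo6 (0.679) did not pass, nor did Il4 with 2 or more Foxp3 UMIs (0.518) or, like Ccl1, with unmatched cells (0.435 and 0.272).

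Rises inside cluster 5 were smaller. Tff1 rose by 1.75 on the log2 scale, C2cd4b by 1.66, Cir1 by 1.34, Cd81, a tetraspanin gene, by 1.18 and Rapsn by 1.15. Of these 5, none passed without the replicate block. Ikzf2 stood at 349, 807 and 931 CPM against 284, 416 and 375 (0.80, SE 0.128, adjusted p = 1.44e-07, edgeR) and Itgae at 188, 351 and 404 against 89.6, 206 and 146 (1.03, SE 0.174, adjusted p = 6.84e-07). Without the replicate block neither passed (adjusted p = 0.739 for Ikzf2 and 0.669 for Itgae), and Itgae did not with possible doublets left out (0.121). Lrrc32 stood at 35.9, 75.0 and 75.3 against 32.1, 31.2 and 55.5 (0.60, SE 0.322, adjusted p = 0.493), and Ctla4 (adjusted p = 0.267) and Tnfrsf18 (0.214) did not pass either.

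Whether the contrast differed between the sides was tested with an interaction term over the 12 sums. It passed for 61 of 7690 genes (0.793%), 56 with a larger log2 fold change outside (0.728%) and 5 with a smaller one (0.065%) while DESeq2 called 28 and the fit without the replicate block 12. Core Treg genes were among the first in 7 of 22 cases (Tnfrsf18, Tnfrsf4, Lrrc32, Itgb8, Itgae, Nrp1 and Capg), with a list median of 0.78 against 0.0178 over all genes. In Lrrc32 the fold change was larger outside by 3.60 (SE 0.463, adjusted p = 4.33e-06, edgeR), in Itgae by 2.58 (SE 0.240, adjusted p = 2.32e-09) and in Il10 by 2.42 (SE 0.271, adjusted p = 6.87e-05). The calls of Itgae (adjusted p = 0.700) and Il10 (0.761) were lost without the replicate block, those of Lrrc32 (0.0941) and Il10 (0.480) with possible doublets left out, and that of Lrrc32 with 1 cell per clonotype (0.114). Leaving out possible doublets kept only 50, 85 and 11 pairs of cells inside cluster 5, so a call lost there may reflect fewer cells, which was not tested. The cells without a Foxp3 UMI differed in level between the sides: in this fit Itgae stood at 84.7, 197 and 138 CPM in those of cluster 5 and at 8.70, 11.7 and 21.5 in those outside. The positive cells stood at 178, 337 and 388 inside and at 100, 164 and 250 outside.

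Rln3 differed by 4.50 (SE 0.369, adjusted p = 9.45e-11, edgeR), Ky by 5.52, Flicr by 5.07 and Frmd5 by 4.49, all larger outside. The value of Flicr does not stand apart from the choice of cells, since it overlaps Foxp3. The call of Rln3 was lost without the replicate block (adjusted p = 0.623), those of Flicr and Frmd5 without replicate 1 (0.386 and 0.574), and that of Frmd5 also with possible doublets left out and with 1 cell per clonotype. For Ccl1, which fell on both sides, the difference of 3.95 (SE 0.838, adjusted p = 0.0358) stands for a smaller fall outside, but it was lost without the replicate block (adjusted p = 0.705), with 2 or more Foxp3 UMIs (0.825), with unmatched cells (0.544), with possible doublets left out (log2 1.44, 0.948) and with 1 cell per clonotype (0.487). Egr2, an early response transcription factor gene of T cell activation (-2.35, adjusted p = 0.0284), Rab35, a membrane traffic GTPase gene (-1.05, 0.0388), and Il7r, the IL-7 receptor gene (-0.59, 0.0284), had a smaller fold change outside, and none of these 3 passed in DESeq2, without the replicate block, without replicate 1 or without replicate 2. Ikzf2 (1.23, SE 0.489, adjusted p = 0.731, but 0.000502 without replicate 1) and Ctla4 (0.49, SE 0.148, adjusted p = 0.313) did not pass.

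Receptor sequences were read apart from the Foxp3 counts, but whether receptor genes entered the clustering is not given in the sources, so their independence of the clusters is unknown. A clonotype was defined by the junction nucleotides and the V and J genes of both chains, and 674 of the 1009 outside cells (350, 222 and 102) and 811 of the 1175 inside cells had both chains. The outside cells fell into 585 clonotypes and the inside cells into 580, of which 100 were shared (64, 26 and 10 in replicates 1 to 3). These made up 17.1% of the outside and 17.2% of the inside clonotypes. Per replicate they made up 21.0%, 14.1% and 10.4% of the outside clonotypes.

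The 4 shared clonotypes with the most positive cells outside cluster 5 are printed below, since each joins cells of several clusters through the same pair of rearranged chains. The junctions run 5′ to 3′, with capitals for bases that match neither the V nor the J segment of the mm10 annotation (GENCODE), that is, bases of the D segment or added at the joint. The beta junction of clonotype 2 could not be split in this way and is in lower case throughout.
clonotype 1, alpha (TRAV13-1, TRAJ27): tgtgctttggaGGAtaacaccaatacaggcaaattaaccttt
clonotype 1, beta (TRBV5, TRBJ2-7): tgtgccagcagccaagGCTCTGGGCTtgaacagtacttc
clonotype 2, alpha (TRAV1, TRAJ39): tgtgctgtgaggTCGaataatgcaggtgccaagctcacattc
clonotype 2, beta (TRBV10, TRBJ2-5): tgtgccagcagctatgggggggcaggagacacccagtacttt
clonotype 3, alpha (TRAV6-7-DV9, TRAJ37): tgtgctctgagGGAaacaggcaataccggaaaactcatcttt
clonotype 3, beta (TRBV3, TRBJ1-1): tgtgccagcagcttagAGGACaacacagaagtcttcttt
clonotype 4, alpha (TRAV9N-4, TRAJ24): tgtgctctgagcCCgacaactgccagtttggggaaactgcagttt
clonotype 4, beta (TRBV26, TRBJ1-4): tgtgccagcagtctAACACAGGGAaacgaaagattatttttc

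Clonotype 1 came from replicate 2 and held 26 clustered cells. Of its positive cells 11 lay in cluster 5 and 9 outside, namely 4 in cluster 4, 2 in cluster 8 and 1 each in clusters 0, 6 and 10. Its other 6 cells had no Foxp3 UMI, 5 in cluster 5 and 1 outside. Clonotypes 2, 3 and 4 came from replicate 1 and each had 5 positive cells outside, with 4, 12 and 12 positive cells inside. Clonotype 3 held no cell without a Foxp3 UMI among its 17, and its outside cells lay in clusters 4 (3 cells), 0 and 11 (1 each). The outside cells of clonotype 2 lay in clusters 4 (3 cells), 3 and 11, and those of clonotype 4 in clusters 6 (2 cells), 4, 8 and 10. None of the 4 occurred in another replicate or in tdTomato+GFP+ cells.

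Outside cells with a Foxp3 UMI shared a receptor with positive cells of cluster 5 more often than their matched neighbours in every replicate. The share was 102 of 350 cells in replicate 1 (29.1%, 95% exact interval 24.4 to 34.2), 54 of 222 in replicate 2 (24.3%, 18.8 to 30.5) and 12 of 102 in replicate 3 (11.8%, 6.23 to 19.6). For the matched cells it was 7 of 350 (2%), 0 of 234, which allows a share of up to 1.28%, and 2 of 110 (1.82%). The mean difference was 20.5 percentage points ± 9.22 (SD, n = 3), higher in 3 of 3 replicates, with p = 0.25 in a two-sided exact sign-flip permutation test, the smallest that 3 replicates can give. With possible doublets left out on both sides the counts were 13 of 74, 41 of 168 and 0 of 28, against 1 of 56, 0 of 172 and 0 of 35 in the matched cells. The mean difference was then 13.4 points ± 12.4 (exact sign-flip p = 0.5), with no difference in replicate 3. With possible doublets left out of the outside cells only, the counts were 27 of 74, 43 of 168 and 0 of 28, against 2 of 56, 0 of 172 and 1 of 35. That gave a mean difference of 18.6 points ± 18.9 (exact sign-flip p = 0.5), and in replicate 3 the positive cells had the lower share.

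No positive cell outside cluster 5 shared a receptor with positive cells of cluster 5 of another replicate. That is 0 of 350, 222 and 102 cells, which allows shares of up to 0.857%, 1.35% and 2.94%. By cluster, the share within a replicate was 21.3% in cluster 0 (30 of 141 cells), 25.3% in cluster 4 (45 of 178), 24.5% in cluster 8 (23 of 94), 27.6% in cluster 6 (16 of 58), 26.2% in cluster 7 (11 of 42), 34.5% in cluster 10 (19 of 55) and 44.0% in cluster 11 (11 of 25). In cluster 9, where Foxp3 detection was among the lowest, it was 0 of 24 (95% exact interval 0 to 14.2%). In the matched cells of clusters 0, 4 and 8 it was 1.504%, 1.19% and 4.04%.

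Where a clonotype had further cells, those of the outside positive cells were mostly Foxp3-positive too. Averaged over the 143, 96 and 30 outside positive cells with clone mates, 71.4%, 59.1% and 59.4% of the mates held a Foxp3 UMI, on either side, and 23.8%, 32.3% and 37.2% were outside cells without one. For the matched cells (232, 122 and 52 with clone mates) 2.42%, 1.96% and 7.02% of the mates held a Foxp3 UMI. For positive cells of cluster 5 it was 79.8%, 83.5% and 84.0%. These shares are a description, as mates of a clone are not independent.

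**Figure D4:**
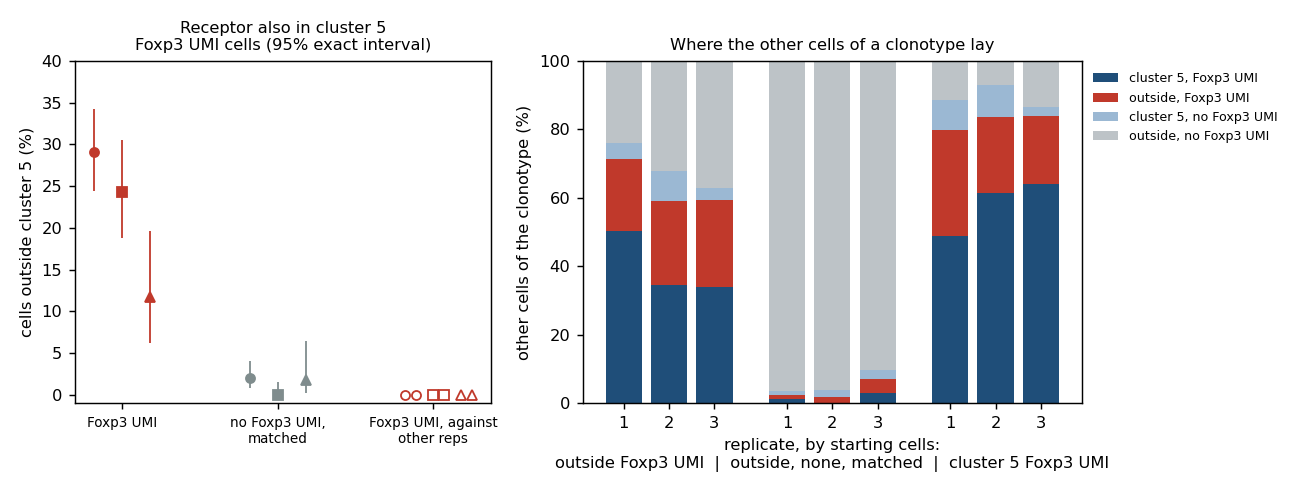
Left, share of cells outside cluster 5 (y axis, percent) whose receptor also occurs in positive cells of cluster 5, for positive cells, matched cells without a Foxp3 UMI and positive cells set against the other replicates (open points), with circle, square and triangle for replicates 1 to 3 and bars for the 95% exact interval. Right, the mean makeup of the other cells of a clonotype (y axis, percent) by replicate for 3 kinds of starting cell, where the mates of matched cells were nearly all outside cells without a Foxp3 UMI (grey) in each replicate.

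Outside positive cells were less often members of expanded clonotypes than inside ones. The share in clonotypes of at least 2 cells among all tdTomato-GFP- cells of the replicate was 41.1%, 43.7% and 29.4% outside and 53.1%, 58.1% and 44.7% inside. The mean difference was -13.9 percentage points ± 1.74 (SD, n = 3), lower in 3 of 3 replicates, with an exact two-sided sign-flip permutation p of 0.25. With clonotypes of at least 5 cells it was -3.6 points (exact sign-flip p = 0.75).

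Receptors shared with the tdTomato+GFP+ gate were rare on both sides. They were found in 4 of 350, 1 of 222 and 2 of 102 outside cells and in 5 of 437, 0 of 260 and 0 of 114 inside cells, where the counts of 0 allow shares of up to 1.15% and 2.63%. The mean difference of 0.803 percentage points ± 1.03 (SD, n = 3) did not exceed the spread between replicates (exact two-sided sign-flip permutation p = 0.5). With 2 or more Foxp3 UMIs it was -0.201 points. No positive cell on either side carried the fixed alpha chain segments of invariant natural killer T cells (Trav11 with Traj18) or of mucosal-associated invariant T cells (Trav1 with Traj33). That is 0 of 674 outside (a share of up to 0.445%) and 0 of 811 inside (up to 0.370%). Of the outside cells without a Foxp3 UMI, 9 of 5433 carried the former, a share below both limits, so no difference can be read from these counts.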

How the data were processed

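The deposited table holds raw counts (whole UMIs of each gene in each cell), and the deposited cell table gave the gate, the hashed replicate, the cluster number and the fraction of hashtag counts on a cell's main hashtag (at least 0.8 in cells with a replicate). Per the submitters' processing notes Cell Ranger, Scanpy 1.7.2 and the builds mm10 and GRCm38 were used. The sources used here do not give the filters on cells, the clustering settings or whether receptor genes entered the clustering.

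Hashtag features (43.8% of UMIs) and 127 tdTomato-GFP- cells without a cluster were left out, of which 10 held a Foxp3 UMI. The members, gene lists and tests were chosen with earlier results of these data known. Raw counts were summed per replicate, after each positive cell outside cluster 5 (or each negative cell inside) had been matched to the nearest cell in total UMIs of the same replicate and cluster. Sums were tested with edgeR 4.0.16 in R 4.3.3 (robust glmQLFit and glmQLFTest, TMM, filterByExpr with a minimum count of 10, replicate as a block, two-sided, Benjamini-Hochberg adjustment over all genes tested, threshold 0.05), with DESeq2 1.42.0 as an alternative. The scripts were tested on simulated data. Foxp3 was dropped from the tests. Ratios outside over inside used a prior count of 0.5.

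Named genes were the 10 largest rises and falls outside, the 5 largest inside and in the interaction and the 3 largest in single clusters, among genes past the threshold with the same direction in all replicates, plus 13 genes always given, of which 1 is not reported here. Other genes named as examples of a list were picked after their values were seen. Receptor segments were counted and not named, and 13 were called outside. Lists are described by counts and medians. The pairing comes from the hashed sample, since both sums of a pair hold cells of the same sample, and deviations of same-numbered sums correlated at 0.181, 0.0198 and 0.0563 outside and 0.198, 0.0432 and 0.0418 inside. No doublet caller was run: cells without a clear hashtag have no replicate, and an alternative left out cells with a hashtag share under 0.95, a second beta chain or UMIs in the top 5% of the replicate. Shares carry exact binomial (Clopper-Pearson) 95% intervals, and a count of 0 allows 3 counts of the total. Counting intervals and limits cover counting error only.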

Additional observations from a re-analysis of the deposited data

Results flagged for a closer look

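A difference between outside and inside cluster 5 in the effect of holding a Foxp3 UMI, tested by the interaction term in edgeR's quasi-likelihood test with Benjamini-Hochberg adjustment, marked 12 of the named genes. On the log2 scale the effect was larger outside in Ky (5.52), Flicr (5.07), Rln3 (4.50), Frmd5 (4.49), Ccl1 (3.95), Lrrc32 (3.60), Itgae (2.58), Il10 (2.42) and Tnfrsf18 (0.66). It was smaller outside in Egr2 (-2.35), Rab35 (-1.05) and Il7r (-0.59). Flicr overlaps Foxp3 on the same strand, and Foxp3 UMIs chose the cells, so its value does not stand apart from that choice. The call of Ky was kept in every alternative run. Outside, Ky had 135 UMIs in the positive cells and 1 in the matched cells, so its size rests on counts near the floor. Each of the other calls was lost in at least 1 alternative. Egr2, Rab35, Il7r and Tnfrsf18 did not pass in DESeq2, where Flicr had no adjusted p. Without the replicate block Rln3, Ccl1, Itgae, Il10, Tnfrsf18, Egr2, Rab35 and Il7r did not pass. With possible doublets left out Frmd5, Ccl1, Lrrc32, Il10, Tnfrsf18, Rab35 and Il7r did not pass, and with 1 cell per clonotype Frmd5, Ccl1, Lrrc32, Egr2 and Rab35 did not. With 2 or more Foxp3 UMIs and with unmatched cells Ccl1, Egr2 and Rab35 did not. Without replicate 1 Flicr, Frmd5, Tnfrsf18, Egr2, Rab35 and Il7r did not pass, without replicate 2 Egr2, Rab35 and Il7r, and without replicate 3 Rab35 and Il7r.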

How the results depend on the processing

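Unless named otherwise, counts are genes at an adjusted p under 0.05. Outside cluster 5 the 1074 genes became 310 with DESeq2, 484 with possible doublets left out, 1763 with unmatched cells and 740 with no replicate block (736 of the 1074 called), and 772 to 1113 without 1 replicate. All 1074 kept their sign with DESeq2, but it was run on the same sums, so this is no separate check. Inside cluster 5 the 144 became 87 with 1 cell per clonotype, 16 with DESeq2, 20 with no replicate block, 33 with possible doublets left out, and 53 to 179 without 1 replicate (53 without replicate 1, 78 without replicate 2). The 61 of the interaction became 38 with 1 cell per clonotype, 28 with DESeq2, 98 with no filter on low counts, 12 with no replicate block, 38 with possible doublets left out, and 35 to 55 without 1 replicate (35 without replicate 1). In cluster 0 the 346 became 195 with 1 cell per clonotype, 210 with 2 or more Foxp3 UMIs, 45 with DESeq2, 67 with possible doublets left out, 642 with unmatched cells, and 110 to 342 without 1 replicate (157 without replicate 1, 110 without replicate 2). In cluster 4 the 434 became 114 with DESeq2, 79 with possible doublets left out, 807 with unmatched cells, and 233 to 494 without 1 replicate (233 without replicate 1). In cluster 8 the 216 became 95 with 1 cell per clonotype, 32 with DESeq2, 404 with no filter on low counts, 100 with possible doublets left out, 419 with unmatched cells, and 7 to 232 without 1 replicate (7 without replicate 2). Higher calls made up 46.8% there and 84.4% with DESeq2. The 118 genes past the fold between the sides became 68 with 2 or more Foxp3 UMIs and 157 to 240 without 1 replicate (240 without replicate 3, with 2 replicates to pass). The share outside moved from 46.3% to 42.2% with 2 or more Foxp3 UMIs and to 41.8% after thinning to 2000 UMIs. The difference in receptors shared with the tdTomato+GFP+ gate reversed, to -0.201 points, with 2 or more Foxp3 UMIs. Leaving out 1 replicate gave 17.1 to 25.7 points for receptors shared with cluster 5 and -14.9 to -13.2 for expanded clonotypes. Named genes reversed in no alternative. The alternatives of single clusters and those that left possible doublets out of the receptor comparison were chosen after seeing the data. With 3 replicates the exact sign-flip tests cannot go below p = 0.25, and genes at a few UMIs rest on counting intervals.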
